A study of Mus musculus with 6 samples.

Results

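The genes described here are 9 genes of the Hedgehog pathway: the ligands Ihh and Shh, the receptor Ptch1, the transducer Smo, the transcription factors Gli1, Gli2 and Gli3, the ligand-binding antagonist Hhip and the mesenchymal factor Foxl1. They were taken by name, and all 9 of 9 were found among 23462 named genes of a mouse whole-genome expression array, where 12 of 56605 probes belonged to them. Of the 9 genes 8 could be tested, with 11 probes, beside 16451 named genes in all. The samples were colon tissue of 6 male mice, 3 labelled Control and 3 labelled Islr knockout, with 1 array per mouse. Islr encodes a secreted protein with leucine-rich repeats and an immunoglobulin domain. The sample source states that every mouse, of either genotype, had drunk dextran sulfate sodium (DSS), which injures the colonic epithelium, at 3.5% for 5 days and had then recovered for 1 day, whereas a separate treatment field states that there was none. Strain, age and the cells in which the allele acts are not given in the sources used here, and the design text speaks of a flow separation without naming a gate.

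Hedgehog ligands are secreted proteins that act on neighbouring cells. In the absence of ligand the receptor Ptch1 keeps Smo inactive; ligand binding relieves this block, and Smo then signals through the primary cilium to the Gli proteins, of which Gli2 is the main activator, Gli3 largely a repressor, and Gli1 an activator that is itself a target gene. In the adult intestine the epithelium makes the ligand, chiefly Ihh, and the mesenchyme beneath it responds, so that Ptch1, Gli1 and Hhip mark responding stromal cells and Foxl1 marks subepithelial telocytes, which lie against the crypts.

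Promoter windows from RefSeq (build GRCm38.p6, 250 bases before to 50 after the start site) were at hand for 6 of the 9 genes, namely Ihh, Ptch1, Smo, Gli2, Gli3 and Hhip. They are shown for Ihh, for Gli2, whose signal lay lower in the knockouts, and for Ptch1, the receptor that is itself a Hedgehog target. Ihh was the only ligand among the members that could be tested and had the largest positive difference of the tested members. All 3 are on the minus strand, at chr1:74951623-74951922, chr1:119053570-119053869 and chr13:63565686-63565985, and capitals mark GC boxes (GGGCGG, or CCGCCC on the other strand).
Ihh: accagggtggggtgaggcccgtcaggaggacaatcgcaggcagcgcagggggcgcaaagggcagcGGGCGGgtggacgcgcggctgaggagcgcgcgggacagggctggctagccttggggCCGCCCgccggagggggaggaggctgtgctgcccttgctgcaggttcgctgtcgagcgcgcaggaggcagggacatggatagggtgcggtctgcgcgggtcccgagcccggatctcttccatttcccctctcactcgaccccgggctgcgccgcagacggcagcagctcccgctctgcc
Gli2: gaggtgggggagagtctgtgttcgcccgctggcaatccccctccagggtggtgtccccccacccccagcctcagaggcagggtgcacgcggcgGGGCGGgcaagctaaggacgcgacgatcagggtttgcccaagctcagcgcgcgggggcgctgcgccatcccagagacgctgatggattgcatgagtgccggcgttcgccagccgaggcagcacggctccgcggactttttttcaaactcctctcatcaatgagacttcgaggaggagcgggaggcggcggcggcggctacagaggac
Ptch1: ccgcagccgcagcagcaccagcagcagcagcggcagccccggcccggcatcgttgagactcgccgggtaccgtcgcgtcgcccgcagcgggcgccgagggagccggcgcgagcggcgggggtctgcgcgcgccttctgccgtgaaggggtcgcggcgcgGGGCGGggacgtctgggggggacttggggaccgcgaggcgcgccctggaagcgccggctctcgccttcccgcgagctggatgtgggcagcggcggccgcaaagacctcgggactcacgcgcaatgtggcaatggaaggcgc
The windows held 2 GC boxes in Ihh, 1 in Gli2 and 1 in Ptch1, and 35.7% of 32851 windows of the same length held at least 1. The core of the GLI binding motif (GACCACCCA, or TGGGTGGTC on the other strand) was in none of the 6 windows, exactly or with 1 mismatch; it was in 0.253% of all windows exactly and in 6.74% with up to 1 mismatch. A TATA box (TATAAA or TTTATA, in 13.6% of all windows) and the forkhead core GTAAACA or TGTTTAC (in 3.65%) were also in none of the 6. The windows were GC-rich, with 67.3% to 76.3% G or C and 17 to 47 CpG dinucleotides, against medians of 52.7% and 7 over all windows. These matches describe letters in short windows only.

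Values below are log2 signals relative to the 75th percentile of the same array, which was 6353 to 7110.5 intensity units in controls and 4910.5 to 5820 in knockouts, and differences are knockout minus control. The genotype labels were checked at Islr itself. Control replicates 2 and 3 read 1.24 and 1.21, the spot of control replicate 1 (1.57) being marked as an outlier by the scanner software, and the knockouts read -1.40, -0.93 and -1.31. Islr was called lower (difference -2.44, SE 0.21, adjusted p = 0.0171 in limma; 0.0580 without knockout replicate 3). All 16 of 16 listed markers of colon epithelium were well above background on all 6 arrays, as were 12 of 12 fibroblast and 10 of 10 smooth muscle markers. Genotype coincided with position, since controls occupied 1 slide row and knockouts the other, so these cannot be told apart.

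The comparison asked how the Hedgehog genes differed between Islr knockout and control colon at that time. Ihh lay higher and Foxl1, Gli2, Gli1 and Ptch1 lay lower in the knockouts, each with no overlap between the groups, but no member passed the test over the whole array: 0 of 8 tested members were called by limma at a 5% false discovery rate, against 3.82% of the 16451 tested genes (1.35% called higher and 2.47% called lower). An unadjusted p under 0.05 was reached by 5 of 8 members (Ihh, Ptch1, Gli1, Gli2 and Foxl1) and by 28.2% of all tested genes. Of the 6 members with a usable value on all 6 arrays 5 showed no overlap between the groups, as did 37.4% of such genes in all. The median difference of the 8 members was -0.49 on the log2 scale, with 6 lower and 2 higher, whereas the median over all tested genes was 0.014 and 48.8% of them were lower. These counts cover the members that passed the filter on dim probes and include Foxl1, which passed it through the controls, where it is high. In whole tissue, fewer cells of a type and less RNA per cell cannot be told apart.

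**Figure D1:**
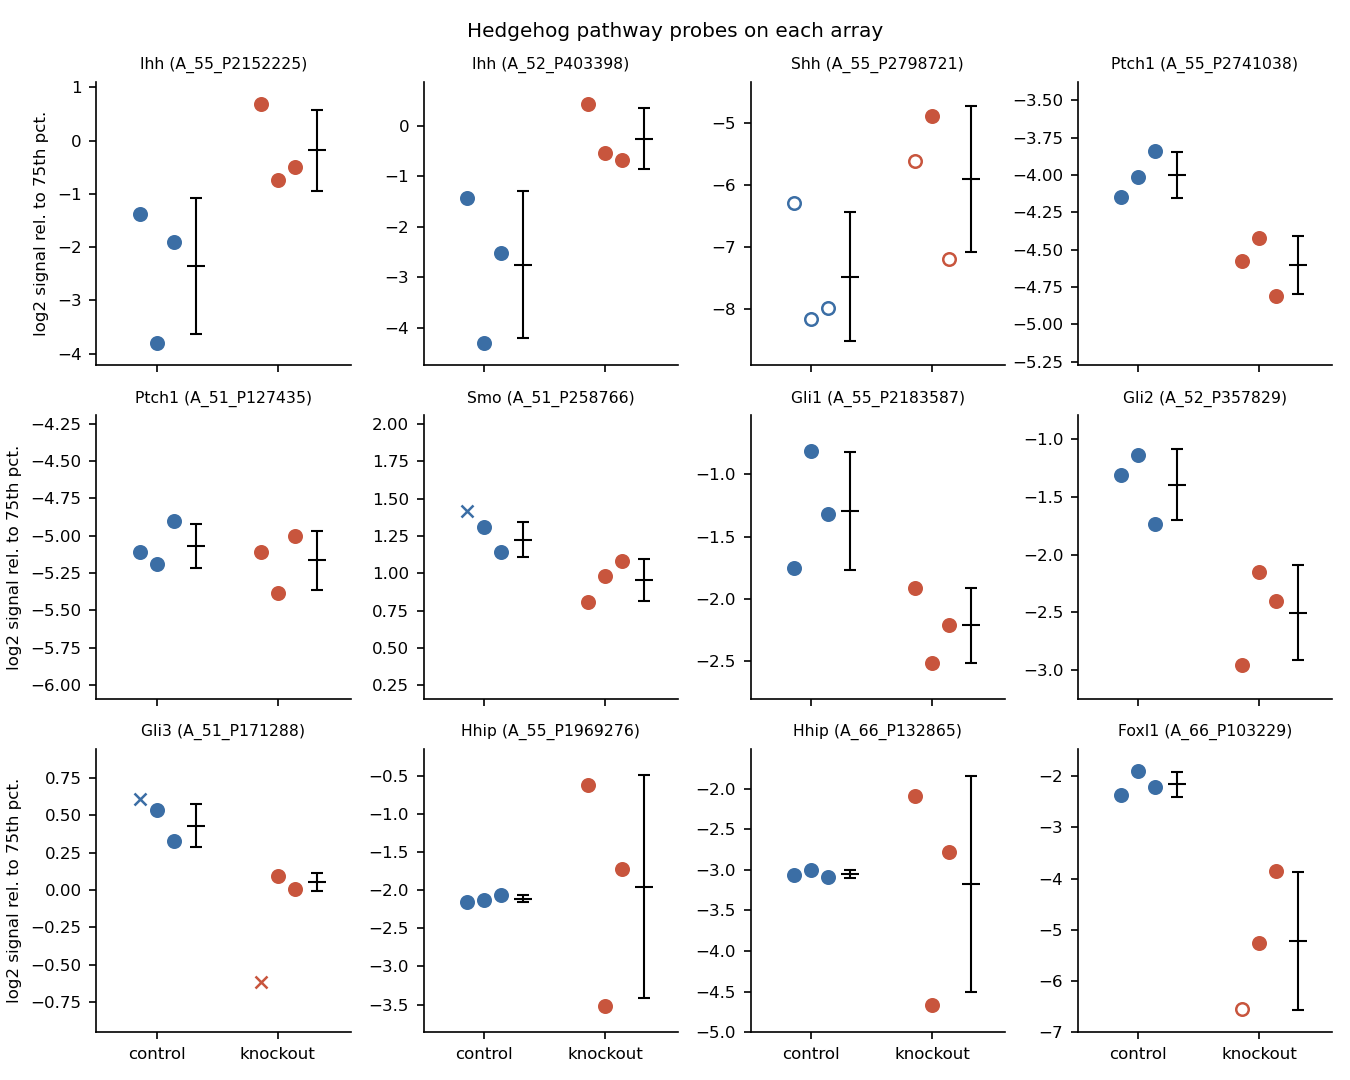
Log2 signal over the 75th percentile of its array (y axis) for the 12 probes of the 9 genes, with 1 point per mouse (replicates 1 to 3 from left to right), blue for controls and red for Islr knockouts; open points were not well above background, crosses are outlier spots left out of the fit, and bars give mean ± SD of the usable values. The knockouts lie above the controls at both Ihh probes and below them at Foxl1, Gli1, Gli2 and the brighter Ptch1 probe, and they spread widely at Hhip.

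Ihh, the ligand of the mature colonic epithelium, was measured by 2 probes. At the brighter probe (A_55_P2152225) control replicates 1, 2 and 3 read -1.38, -3.80 and -1.90, and the knockouts, in the same order of replicates, read 0.69, -0.75 and -0.49. Every knockout was above every control, and control replicate 2 stood lowest. The means were -2.36 ± 1.27 and -0.18 ± 0.76 (SD, n = 3 each), a difference of 2.18 (SE 0.68, 95% interval 0.56 to 3.79), or a 4.52-fold higher signal, which did not pass (adjusted p = 0.104 in limma). The second probe (A_52_P403398) gave 2.49 (SE 0.71, adjusted p = 0.0903), again with no overlap, so the 2 probes differed by less than their errors. With 1 array left out the difference was 1.46 to 2.67, the lowest of these without control replicate 2.

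Shh, a ligand better known from the developing gut, was near background. Its signal was 81.3, 24.6 and 25.7 intensity units in the controls and 99.8, 197 and 39.4 in the knockouts. Only knockout replicate 2 was well above background, so Shh was not tested and no fold is given. Dhh, the remaining mammalian ligand, is best known from Schwann cells. The controls read -4.62, -3.53 and -4.51 and the knockouts -7.31, -5.51 and -5.63, without overlap. Dhh was well above background on all 3 control arrays but on 1 of 3 knockout arrays and so entered the test through the controls, where it is high; the fitted difference of -1.93 (adjusted p = 0.0858) has no firm size.

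Ptch1, the receptor, was measured by 2 dim probes, which gave differences of unlike size. The brighter one (A_55_P2741038) read -4.14, -4.01 and -3.84 in the 3 controls and -4.57, -4.42 and -4.81 in the 3 knockouts. All knockouts were lower, by -0.60 (SE 0.17, adjusted p = 0.0894), or 1.52-fold. The other probe (A_51_P127435) differed by -0.10 (SE 0.17, adjusted p = 0.748) with overlapping groups, and its 95% interval of -0.51 to 0.31 overlapped that of the first, -1.01 to -0.19. The mean of both probes differed by -0.35.

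Smo, the membrane protein that Ptch1 holds in check, read 1.31 and 1.14 in control replicates 2 and 3, the spot of control replicate 1 being an outlier, and 0.81, 0.98 and 1.09 in knockouts. The groups were close, without overlap, and the difference of -0.27 (SE 0.18, 95% interval -0.72 to 0.18) did not pass (adjusted p = 0.395). Hhip, a membrane-anchored and secreted antagonist that binds the ligands and is induced by them, did not separate the genotypes. Its brighter probe (A_55_P1969276) read -2.15, -2.13 and -2.06 in the 3 controls and -0.63, -3.51 and -1.72 in the 3 knockouts. The controls were nearly identical (SD 0.045), whereas the knockouts (SD 1.46) lay on both sides of them, knockout replicate 1 highest and knockout replicate 2 lowest. The second probe (A_66_P132865) ordered the knockouts the same way, at -2.09, -4.66 and -2.78. The fitted differences were 0.16 (SE 0.67, adjusted p = 0.899) and -0.13 (SE 0.61, adjusted p = 0.914). Without knockout replicate 1 the brighter probe's difference turned to -0.50, and without knockout replicate 2 it was 0.94; it was also negative with array weights (-0.25).

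Gli2, the chief activator among the Gli factors, read -1.31, -1.14 and -1.73 in the 3 controls and -2.95, -2.15 and -2.40 in the 3 knockouts. All knockouts lay below all controls, and knockout replicate 1 was lowest. The means were -1.39 ± 0.31 and -2.50 ± 0.41 (SD, n = 3 each), a difference of -1.11 (SE 0.27, 95% interval -1.74 to -0.48), or 2.16-fold lower, which did not pass (adjusted p = 0.0649 in limma).

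Gli1, whose transcript is a standard readout of pathway activity, read -1.75, -0.81 and -1.32 in the 3 controls and -1.91, -2.52 and -2.21 in the 3 knockouts. The groups did not overlap, but control replicate 1 and knockout replicate 1 lay close together. The difference was -0.92 (SE 0.28, 95% interval -1.59 to -0.24), or 1.89-fold lower (adjusted p = 0.102). Gli3 had an outlier spot in replicate 1 of each group. The other arrays read 0.53 and 0.33 in controls and 0.09 and 0.0069 in knockouts, a difference of -0.38 (SE 0.21, adjusted p = 0.311). With the outlier spots kept, knockout replicate 1 at -0.62 widened the difference to -0.66, still without a call. Gli2 and Gli1 had no fixed order of size: Gli1 had the larger difference with array weights (-1.30 against -1.06) and without knockout replicate 1 (-1.07 against -0.88) or control replicate 1 (-1.15 against -1.07). The Gli1, Gli2 and Gli3 values were therefore all lower in the knockouts, and none of the 3 passed.

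Foxl1, a forkhead factor of the subepithelial telocytes that is described as a Gli target in the gut, had the largest fitted difference of the 8 members. Its signal was 1229, 1919 and 1419 intensity units in the controls and 51.9, 152 and 399.7 in the knockouts. Relative to the 75th percentile these were -2.37, -1.89 and -2.20 in the 3 controls and -6.56, -5.26 and -3.85 in the 3 knockouts. The controls were tight and every knockout was lower. Foxl1 was well above background on 3 of 3 control arrays and 2 of 3 knockout arrays (not on knockout replicate 1), so it entered the test through the group where it is high and the size of the difference is uncertain. The means were -2.15 ± 0.24 and -5.23 ± 1.36 (SD, n = 3 each), a fitted difference of -3.07 (SE 0.63, 95% interval -4.58 to -1.57), or 8.40-fold lower, which did not pass (adjusted p = 0.0509 in limma). The call depended on the setting: the gene dropped out of the test where all 6 arrays had to be above background, and it passed in 6 of the 8 other processing settings on all arrays (adjusted p = 0.0143 to 0.0784 over the 8) and in 0 of 6 fits that left out 1 array (0.0528 to 0.135), in which the difference was -3.76 to -2.40.

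Foxl1 lies in a cluster of forkhead genes, and its protein-coding neighbours in the RefSeq gene order were read as well, a choice of genes made by position. Foxc2, the next gene, which acts in lymphatic vessels and mesenchyme, fell in the knockouts. It read -3.17, -2.34 and -2.95 in controls and -4.77, -4.96 and -4.44 in knockouts, a difference of -1.90 (SE 0.26, adjusted p = 0.0284 in limma). The call was lost without control replicate 2 or 3 or knockout replicate 1 or 3 (adjusted p up to 0.0738). Mthfsd, the gene beyond it, gave 0.69 (adjusted p = 0.131) at its brightest probe and -0.069 and 0.091 at the others. Foxf1, a Hedgehog-responsive gene of gut mesenchyme that follows Mthfsd, gave -0.56 (SE 0.25, adjusted p = 0.216), and Irf8 beyond it 0.16 (adjusted p = 0.657). On the other side the gene next to Foxl1, 1700018B08Rik, was not tested, Fbxo31 gave -0.30 (adjusted p = 0.315), Map1lc3b -0.13 (adjusted p = 0.621) and Zcchc14 -0.84 (SE 0.18, adjusted p = 0.0524). Of these neighbours Foxc2 alone was called.

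The wider pathway was read from lists by role, each gene at its brightest tested probe and the members included; the shares over all genes to set beside their counts are 3.82% called and 28.2% with an unadjusted p under 0.05. Among 9 tested genes for ligands and their release, 6 were lower, with a median of -0.14 and 0 calls (unadjusted p under 0.05 in 1 higher and 2 lower). Dhh, among these 2, passed the filter on dim probes only through the controls. Scube1, a secreted glycoprotein of a family that helps release lipid-modified ligand, gave -1.55 (SE 0.35, adjusted p = 0.0581); its dimmer probe was called (-2.29, SE 0.37, adjusted p = 0.0354; 0.0923 at most with 1 array left out). Among 11 tested receptors and co-receptors, 6 were lower, with a median of -0.27 (-0.052 without control replicate 3, 0.071 without control replicate 2), and 0 were called (unadjusted p under 0.05 in 0 higher and 2 lower). Smo could not be fitted without control replicate 2 or 3, so the medians of those fits cover fewer genes. The co-receptors Boc and Cdon, which present ligand to Ptch1, gave -0.77 (SE 0.35, adjusted p = 0.228) and -0.49 (SE 0.21, adjusted p = 0.187), and 2 dimmer Cdon probes gave -0.16 and -0.11 with overlapping groups.

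Of 17 tested intracellular regulators 13 were lower, with a median of -0.27, 1 call and an unadjusted p under 0.05 in 1 higher and 5 lower. Btrc, among the 13, passed the filter on dim probes only through the controls. Tulp3, which carries receptors into the cilium and restrains Hedgehog output, fell from -1.22, -1.07 and -1.20 in controls to -2.72, -2.36 and -2.28 in knockouts. Its difference of -1.29 (SE 0.17, adjusted p = 0.0275) was the only call of this list, and it was lost without control replicate 2 or 3 or knockout replicate 1 or 3 (adjusted p up to 0.0905). Sufu, which binds and holds Gli proteins, gave -0.53 (SE 0.14, adjusted p = 0.0776), Kif7, a ciliary kinesin of the pathway, -0.74 (SE 0.25, adjusted p = 0.121), and Stk36, the Fused kinase, -1.30 (SE 0.29, adjusted p = 0.0572), though a dimmer Stk36 probe gave -0.16. Dimmer Sufu probes gave -0.21 (adjusted p = 0.494 in limma) and -0.36 (adjusted p = 0.293). With its outlier spot kept, the former gave 0.16 with overlapping groups. Of 17 tested genes of the primary cilium 12 were lower, with a median of -0.28, a range of -0.72 to 0.42 and 0 calls (unadjusted p under 0.05 in 0 higher and 4 lower).

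Of 21 tested Gli factors and genes described as Hedgehog-responsive in gut mesenchyme 16 were lower, with a median of -0.53, and 2 were called, both lower (unadjusted p under 0.05 in 2 higher and 10 lower). Foxl1, among the 10, passed the filter on dim probes only through the controls, and Hsd11b2, which was higher, only through the knockouts. The count of calls depended on the setting: it was 0 without the filter on dim probes and with the mean of a gene's probes, 6 with median centring, 7 with normexp and quantile normalization and 11 with array weights. Bmp4, a stromal growth factor that is a classical target in the gut, fell from 1.32, 1.46 and 1.34 in controls to -1.44, -0.09 and -0.35 in knockouts (difference -1.999, SE 0.35, adjusted p = 0.0395 in limma). Its other probe, brighter and an outlier spot on 3 arrays, could not be tested and differed by -0.55 with those spots kept. Nr2f1, a nuclear receptor of mesenchyme, fell by 1.497 (SE 0.28, adjusted p = 0.0444). Bmp4 lost its call when any control or knockout replicate 3 was left out (adjusted p up to 0.110), and Nr2f1 when any array other than knockout replicate 2 was left out (up to 0.121); both also lost it without the filter on dim probes (0.0606 and 0.0680) and with the mean of a gene's probes (0.0543 and 0.0587). Of the others, Tcf21 gave -1.82 (adjusted p = 0.0545), Mycn -1.02 (0.0613) and Sfrp1 -1.19 (0.138), whereas the cyclins Ccnd1 and Ccnd2 gave 0.84 (0.108) and 0.93 (0.0722).

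Foxl1 and Gli1 also belong to a list of subepithelial telocytes and niche fibroblasts. Of its 17 tested genes 15 were lower, with a median of -0.92, and 2 were called, both lower (unadjusted p under 0.05 in 0 higher and 12 lower). Foxl1, Wnt2b and Pdgfra, all among the 12, passed the filter on dim probes only through the controls, where they are high. The counts of lower genes are therefore not independent of that filter. The count of calls was 1 without the filter on dim probes, 5 with normexp and quantile normalization and 8 with array weights. Bmp7, a telocyte growth factor, fell by 2.43 (SE 0.33, adjusted p = 0.0277), from 1.45, 1.35 and 1.21 in controls to -1.87, -0.75 and -0.68 in knockouts. Dll1, a Notch ligand, fell by 1.06 (SE 0.19, adjusted p = 0.0416). Bmp7 lost its call without control replicate 2 or 3 or knockout replicate 3 (adjusted p up to 0.0771) and Dll1 when any array other than control replicate 1 was left out (up to 0.125), as well as without the filter on dim probes (0.0604) and with the mean of a gene's probes (0.0541). The brightest tested probes of Bmp5 (-2.07, adjusted p = 0.0929) and Nrg1 (-2.52, adjusted p = 0.0547), both telocyte growth factors, were not called. Dimmer probes of Bmp5 (-2.65, adjusted p = 0.0435) and Nrg1 (-3.16, adjusted p = 0.0233) were, and lost their calls in 5 and 3 of 6 fits with an array left out (up to 0.111 and 0.0672), among them those without control replicate 2 or 3 or knockout replicate 3. A further Nrg1 probe had usable spots on 1 control and 0 knockout arrays and could not be tested. With outlier spots kept it differed by 0.12, with overlapping groups. F3 and Cd81, at 0.044 and 0.010, were the 2 tested genes of this list that were not lower. Cxcl14 gave -1.23 at its brightest probe and 0.37 at a dimmer one, there with overlapping groups. Among untested genes, with outlier spots kept, Ackr4 and Dpp4 differed by 0.37 and 0.45 with overlapping groups. Grem1, also untested, differed by -0.97 without overlap.

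**Figure D2:**
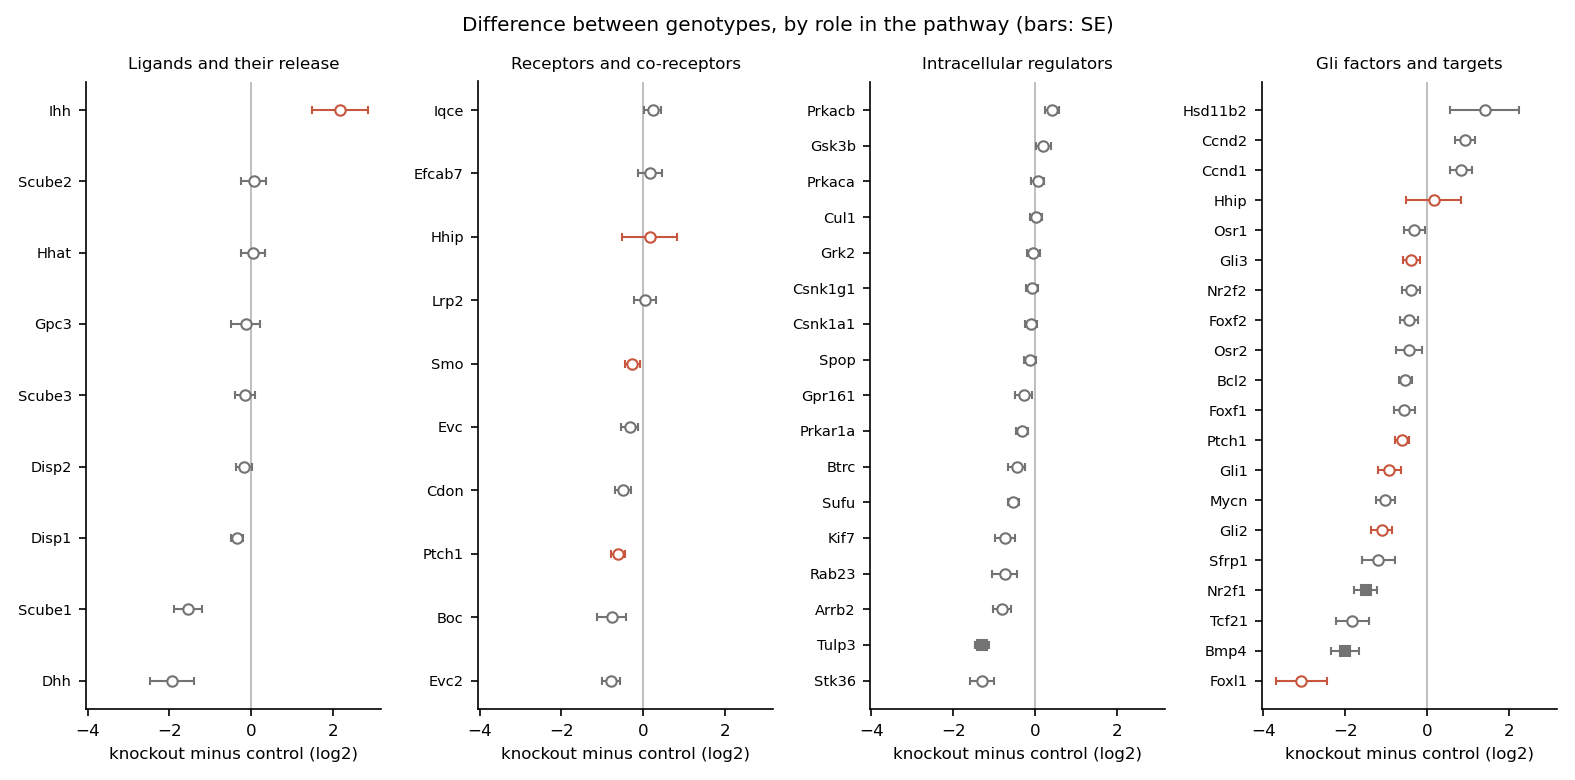
Difference between Islr knockout and control on the log2 scale (x axis) with its moderated standard error for the tested genes of 4 lists, in 1 panel per role, with 1 receptor gene not shown. Red marks the Hedgehog genes of the main set and filled squares mark the 3 genes called at a 5% false discovery rate, Tulp3, Bmp4 and Nr2f1; Ihh stands at 2.18 on the right and Foxl1 at -3.07 on the left.

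Markers of the cell types that make or answer Hedgehog ligand were read beside the members. All 13 tested epithelial markers were higher in the knockouts, with a median of 1.26 and 0 calls in limma (4 of 13 with an unadjusted p under 0.05, beside 28.2% of all genes), and their summed signal was 25.8 to 86.1 times the 75th percentile in controls and 97.2 to 131 times in knockouts. The mean epithelial marker value was 2.50, 0.27 and 1.79 in control replicates 1, 2 and 3 and 3.18, 2.79 and 2.76 in the knockouts. Ihh had the same highest array, knockout replicate 1, and the same lowest, control replicate 2, and the controls stood in the same order. Knockout replicates 2 and 3 stood in the opposite order at the brighter Ihh probe (-0.75 and -0.49) and in the same order at the other (-0.54 and -0.67). All 11 tested fibroblast markers were lower, with a median of -0.63 and 2 calls, beside 3.82% of all genes called (7 of 11 with an unadjusted p under 0.05). Their summed signal was 48.3 to 56.3 times the 75th percentile in controls and 30.3 to 40.1 times in knockouts. Pdgfra, among the 7, was counted at a dim probe that passed the filter only through the controls, where it is high. Its brightest probe could not be tested and differed by -1.13 with outlier spots kept.

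Markers of other cell types gave the following values. Smooth muscle markers, whose cells also respond to Hedgehog ligand, were higher in 8 of 8 tested (median 0.36, 0 calls, 2 with an unadjusted p under 0.05; summed signal 39.9 to 49.998 in controls, 54.5 to 64.4 in knockouts). Endothelial markers were lower in 9 of 9 (median -0.99, 0 calls, 7 unadjusted; 13.8 to 15.1 and 4.39 to 10.3), leukocyte markers in 11 of 12 (median -0.88, 3 called lower; 28.5 to 30.8 and 16.02 to 19.0) and enteric nervous system markers in 7 of 8 (median -0.44, 0 calls, 2 unadjusted; 17.8 to 20.1 and 17.3 to 18.8). Skeletal muscle markers, of a tissue outside the colon wall, were higher in 11 of 12 (median 0.81, 3 called higher; 4.29 to 5.80 and 10.54 to 15.5). One of these calls, the myosin Myh2, was well above background on 0 of 3 controls and 3 of 3 knockouts and so entered the test through the knockouts. An unadjusted p under 0.05 in limma was reached by 6 of 12 leukocyte and 6 of 12 skeletal muscle markers. The shares over all tested genes are 28.2% at that level and 3.82% called. No marker in any list of this paragraph was below background on every array. The part of these lists in the Hedgehog differences was not tested; for epithelium and fibroblasts, differences relative to the markers follow.

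**Figure D3:**
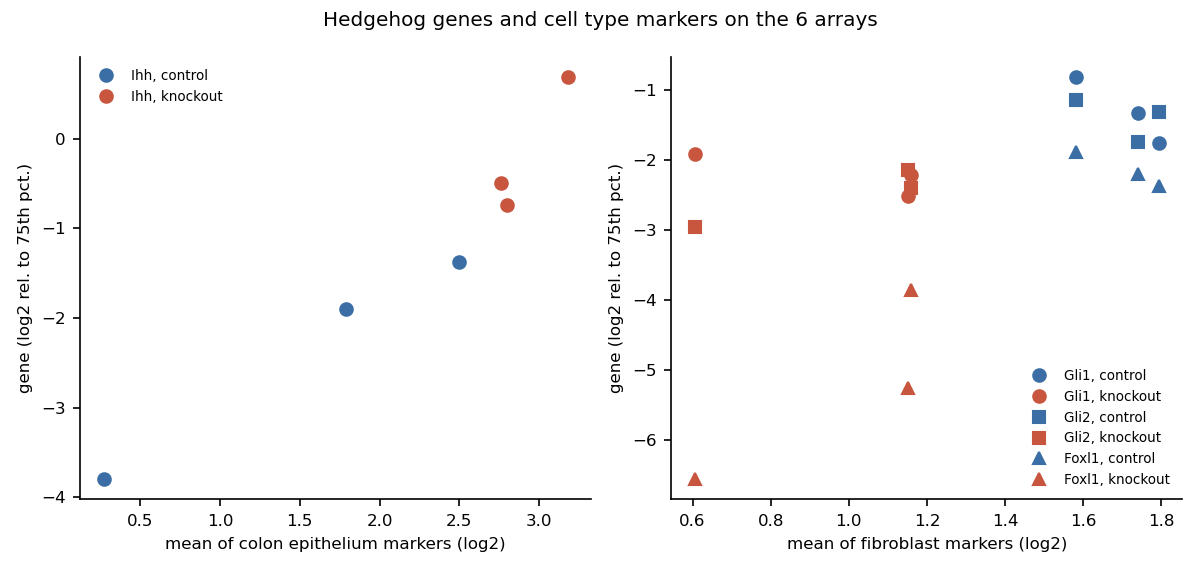
Each point is 1 array: the gene's log2 signal relative to the 75th percentile (y axis) against the mean log2 signal of 13 epithelial markers (left, Ihh) or 11 fibroblast markers (right, Gli1, Gli2 and Foxl1), blue for controls and red for knockouts. Ihh is lowest on the array with the lowest epithelial mean (0.27), and the fibroblast mean is 1.58 to 1.79 in controls and 0.61 to 1.16 in knockouts.

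Each member was therefore also read against the mean of these markers on the same array, with outlier spots kept, a measure chosen after the values were seen. The fibroblast mean itself differed by -0.73 and the epithelial mean by 1.39. The dim Pdgfra probe is part of the fibroblast mean. Relative to fibroblast markers, Ihh was higher by 2.91 without overlap. Foxl1 differed by -2.34 (SD 0.35 in controls and 1.09 in knockouts, n = 3 each), with every knockout below every control; its size is uncertain here too, since knockout replicate 1 was not well above background. Gli1 (-0.19), Gli2 (-0.38), Gli3 (0.070), Ptch1 (0.13) and Hhip (0.89) overlapped between the groups, and Smo was higher by 0.40 without overlap. The exact two-sided permutation test gave p = 0.1 for Ihh, Foxl1 and Smo, the smallest value that 3 against 3 arrays allow, 0.2 for Gli2, 0.5 for Hhip and 0.7 for each of Gli1, Gli3 and Ptch1. Relative to epithelial markers, Ihh was higher by 0.78 (SD 0.19 in controls and 0.54 in knockouts, n = 3 each; exact p = 0.1), still without overlap, against 2.18 relative to the 75th percentile. On that scale Ptch1 (-1.99), Smo (-1.72), Gli1 (-2.31), Gli2 (-2.50), Gli3 (-2.05) and Foxl1 (-4.46) were lower without overlap. Hhip overlapped (-1.23), and the median of the 8 tested members was -2.02. The share of all genes without overlap was not computed relative to either marker mean, so these separations cannot be read as particular to the members. The epithelial mean itself was higher by 1.39, with every knockout above every control. A gene with no difference relative to the 75th percentile would therefore tend to read lower here. Ratios whose groups overlapped do not show unequal change between a gene and its reference. The others separated the groups on these arrays, each with p = 0.1 in the exact permutation test. They do not establish unequal change, and no ratio shows that gene or reference stayed constant.

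**Figure D4:**
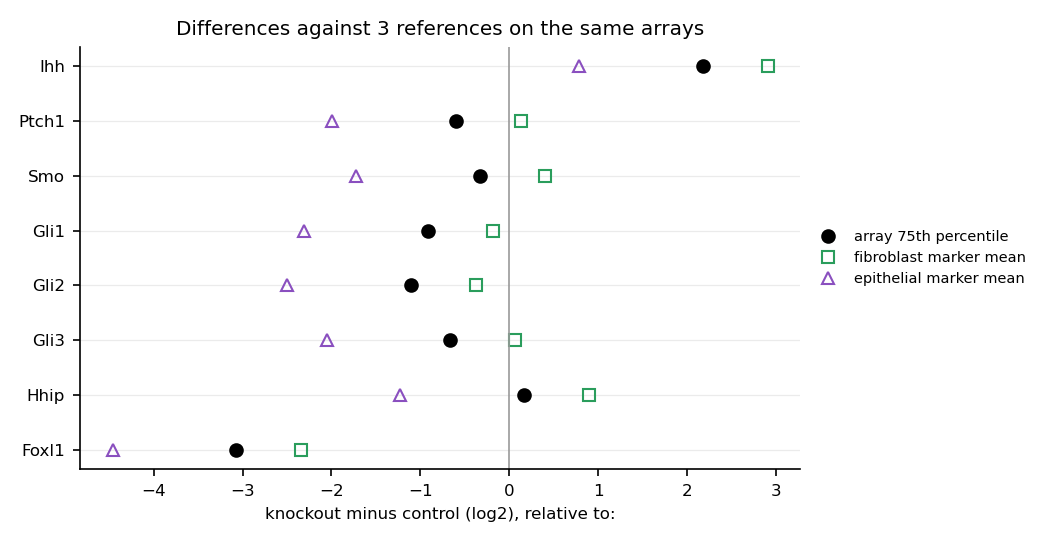
Difference between knockout and control (log2, x axis) for the 8 tested genes, with outlier spots kept, relative to the array's 75th percentile (black), to the mean of 11 fibroblast markers (green squares) and to the mean of 13 epithelial markers (purple triangles). Against fibroblast markers Gli1, Gli2, Gli3 and Ptch1 lie between -0.38 and 0.13 and Foxl1 stays at -2.34; against epithelial markers Ihh lies at 0.78.

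Genes with the most similar profile over the 6 arrays were found by the root mean square difference of centred log2 values among 15303 genes well above background on every array. Among the 3 nearest to Ihh were Nrap (0.15) and Cds1 (0.20). Those nearest to Gli2 were Gpr65 (0.095), Afap1l1 (0.096) and Notch3 (0.12), and those nearest to Gli1 were Eogt (0.12), Bhlha15 (0.16) and Cdk5rap1 (0.19). For Ptch1 they included Orc6 (0.052) and Clip2 (0.073). They were, for Smo, Ssxb9 (0.029), Cdc42bpa (0.038) and C9orf72 (0.038), and for Gli3 Fgfbp3 (0.035), Zfp108 (0.038) and Grip1 (0.051). Hhip had no close match: its nearest, Tfrc (0.38), Gcnt1 (0.40) and Lor (0.42), lay farther off than the matches of any other member. No member was among the nearest 3 genes of another. Foxl1 was not well above background on every array and was left out.

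**Figure D5:**
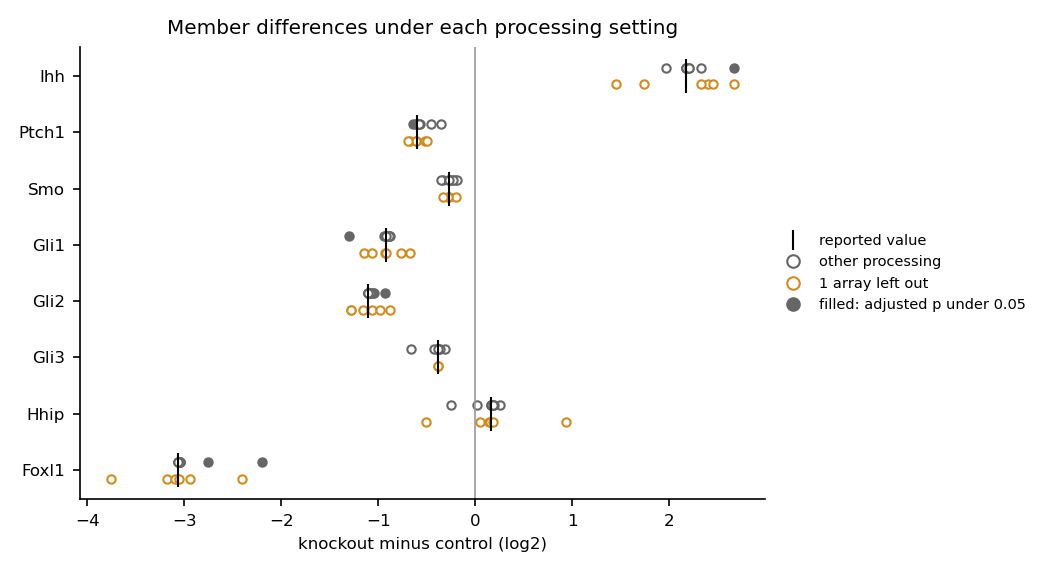
Difference between knockout and control (log2, x axis) of the 8 tested genes as reported (black bar), under other processing (grey) and with 1 array left out (orange); filled points passed a 5% false discovery rate. Foxl1 passed in 6 of the 8 other settings that could test it and Gli2 in 3 of 9, none of the 8 passed with an array left out, and only Hhip crossed 0.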

How the data were processed

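Total RNA of 6 colons was hybridised to 1-colour Agilent arrays, per the labels' protocols. The deposited scanner files (Feature Extraction 11.5.1.1 per the file headers; 10.7 per the submitters' processing notes) held the red channel alone, although the labels name Cy3. Their processed signal is a linear intensity, background-subtracted and not scaled between arrays, per the file headers; the deposited value table gave log2 correlations of at least 0.999999 with them on each array.

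Signals were converted to log2 minus the array's 75th percentile. Control spots and outlier spots (3.26% to 16.0% per array) were left out, and no spot was saturated. Knockout replicate 1 had the most outlier spots (16.0%), the lowest 75th percentile (4910.5) and the smallest share of spots well above background (69.4%). The same array had the highest Ihh value and the lowest Gli2 and Foxl1 values. A probe was tested where every array of some group read it well above background and each group kept 2 usable values, which left 35351 of 56605 probes. Genotypes were compared by limma's moderated two-sided test (version 3.58.1, R 4.3.3; lmFit, eBayes) over all probes, with Benjamini-Hochberg adjustment at 0.05. Replicate numbers follow accession order and only name the mice; 3 arrays per group limit the precision. In simulated data over 35351 probes, of which 200 were changed, 10.6%, 56.7% and 76.1% of changes of 1, 2 and 3 on the log2 scale were recovered. There were 100 calls in the simulation and 1403 in the real comparison. The adjustment depends on that number, so these shares do not give the recovery of the reported test.

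Probes were named by RefSeq accession without version (33767 of 56605 matched, GRCm38.p6); the files place probes on mm9, so no probe coordinates are given. A gene's brightest tested probe stood for it. Named genes were the members with every probe, list genes called at that probe, Islr and the 3 nearest genes by profile; the neighbours of Foxl1, genes named for their role, and called dimmer probes were added later. The members and lists were chosen with earlier results of these data known. Alternatives were outlier spots kept, normexp (offset 50) with quantile, quantile, median centring, other background filters, array weights, the value table, the mean of a gene's probes, and leaving out each array. Values of 3 genes are not reported here.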

Additional observations from a re-analysis of the deposited data

How the results depend on the processing

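The count of called members, 0 as reported, was 1 with outlier spots kept, with quantile normalization and with the value table (Foxl1 each time), 2 with normexp and quantile normalization and with median centring (Foxl1 and Gli2), and 5 with array weights (Ihh, Ptch1, Gli1, Gli2 and Foxl1); it was 0 with the other settings and 0 to 0 with 1 array left out. The count of called probes over the whole array, 1403 as reported, was 2773 with normexp and quantile normalization, 2185 with quantile normalization, 2249 with median centring, 484 without a filter on dim probes, 8119 with array weights, and 40 to 2114 with 1 array left out. Of the members only Hhip changed sign, to -0.25 with array weights and -0.50 without knockout replicate 1; the cause was not tested. With knockout replicate 2 left out Hhip was at 0.94. Smo could be fitted in 4 and Gli3 in 2 of the 6 fits with an array left out, and Foxl1 not with probes above background on all arrays. No paired analysis was possible because the labels give the mice no replicate numbers, and those used here only name them. Near-background signals limit Shh, Dhh and Foxl1.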
